A study of Mus musculus with 11 samples.

Results

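T9-EpiSC are epiblast stem cells of the T9 line that had spent 2 days without the growth factor Fgf2. Their transcript levels are described here against 8 arrays of other mouse epiblast stem cell cultures, measured on Illumina MouseRef-8 v2 bead arrays. The cultures make up 9 of the 11 arrays of the study, and the genes described are those for which the only T9-EpiSC array lay above the highest or below the lowest of the other 8. Of 9362 genes measured, 4575 lay outside that range, and 520 of them lay outside by at least 1 log2 unit. The position of T9-EpiSC chose these genes, so their values are a description. With 1 array of T9-EpiSC no spread of its own was measured and no test was made. The T9 line was grown on mouse embryonic fibroblasts of the CF1 strain (MEFs) at medium density, in a medium labelled UM, and was collected free of these feeder cells. EpiSC are cells of the GOF18 line, for which the labels give no medium. Epi-Sox2 are GOF18 cells that overexpress wild-type Sox2 and were kept in CM, medium conditioned for EpiSC. The E3 line, also kept in CM, gave EpiSC-GFP+ and EpiSC-GFP-, which were separated by flow cytometry with an Oct4-GFP reporter. These 4 groups had 2 arrays each, labelled as biological replicates, and 2 further arrays held ESC, male embryonic stem cells. The 11 arrays of the study include no T9 array with Fgf2. The line, the feeders, the medium and the withdrawal of Fgf2 therefore cannot be told apart in any of these differences.

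Epiblast stem cells come from the epiblast of the mouse embryo after implantation and renew themselves in activin and Fgf2. Fgf2 binds FGF receptors together with heparan sulphate proteoglycans and activates the kinase ERK, which induces immediate early genes such as Fos and Egr1, the Ets factors Etv4 and Etv5, and feedback inhibitors such as Spry4 and Dusp6. The epiblast is an epithelium, and its cells give up E-cadherin under repressors such as Zeb1 and Snai1 when they form mesoderm or neural crest.

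The array labelled T9-EpiSC went against its male label in 2 kinds of transcript. Xist, the RNA that coats the inactive X chromosome in female cells, read 8.59 on T9-EpiSC on the log2 scale of normalized signal and at most 4.89 on the other 8 arrays, where it was not detected. A further Xist probe read 6.73 on T9-EpiSC and at most 5.07 on the 8. Eif2s3y, a gene of the Y chromosome, was not detected on T9-EpiSC and read between 5.45 and 7.40 on the 8. Of 288 genes of the X chromosome, 34.7% lay above the range of the 8 arrays and 10.4% below it, against 24.0% and 24.9% of 8350 autosomal genes. Whether the sex label or the identity of the array is wrong was not tested, and each value given for T9-EpiSC rests on its label. Results without X and Y chromosome genes are given with the alternatives. The mean intensity of the 9 arrays ran from 199.7 to 371 and was 324 on T9-EpiSC, and the number of detected probes ran from 9250 to 11675 of 25697, with the highest number on T9-EpiSC. Across genes, which are not independent replicates, T9-EpiSC correlated with the 8 arrays at Pearson's r from 0.897 to 0.943, highest with the 2 EpiSC arrays (0.939 and 0.943). Arrays of different groups among the 8 correlated at 0.942 to 0.973 and replicate arrays at 0.988 to 0.996.

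T9-EpiSC read higher than all 8 arrays for growth factors and binding proteins (Ptn, Igfbp5, Igf2), for regulators of the hindbrain and neural plate (Hoxb1, Hoxb2, Meis2, Nr2f1, Sox21, Irx3), for the repressor Zeb1 and for glycolytic genes. It read lower than all 8 for epithelial genes (Ap1m2, Cldn6, Rab25, Cldn4, Cdh1), for some naive pluripotency genes such as Esrrb, and for the FGF targets Etv4 and Spry4. Of 17 measured feedback and target genes of FGF and ERK, however, 6 lay above the range, 4 below and 7 within. Of 17 measured naive genes, 2 lay above, 7 below and 8 within. Hoxb1, Hoxb2 and Nr2f1 were detected on none of the 8 arrays. They passed the detection filter through T9-EpiSC alone, so that they had to be high there. The count above the range was 2291 genes (24.5% of those measured) and the count below it was 2284 (24.4%). At least 1 unit above lay 304 genes (3.25%), with gaps of up to 4.35 to the nearest array, and at least 1 unit below lay 216 genes (2.31%), with gaps that reached -3.98, for a probe without a gene symbol. Fgfbp3 lay just inside that threshold at 1.004 above and Abat just outside it at 0.998, and on the other side Vkorc1 lay at -1.003 from the lowest array and Plvap at -0.993. Of the 304 genes, 147 were detected on all 8 arrays and 38 on none of them. All 216 genes were detected on all 8 arrays, and 37 of them were not detected on T9-EpiSC. The gap was larger than the largest difference between replicate arrays of any group for 2200 of the 4575 genes and for 518 of the 520. The share of genes outside the range that lay above it was 50.1%, and 58.5% at 1 unit or more. With median scaling in place of quantile normalization these shares were 66.5% and 78.6%, and the median difference over all genes was 0.18 in place of -0.03.

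**Figure D1:**
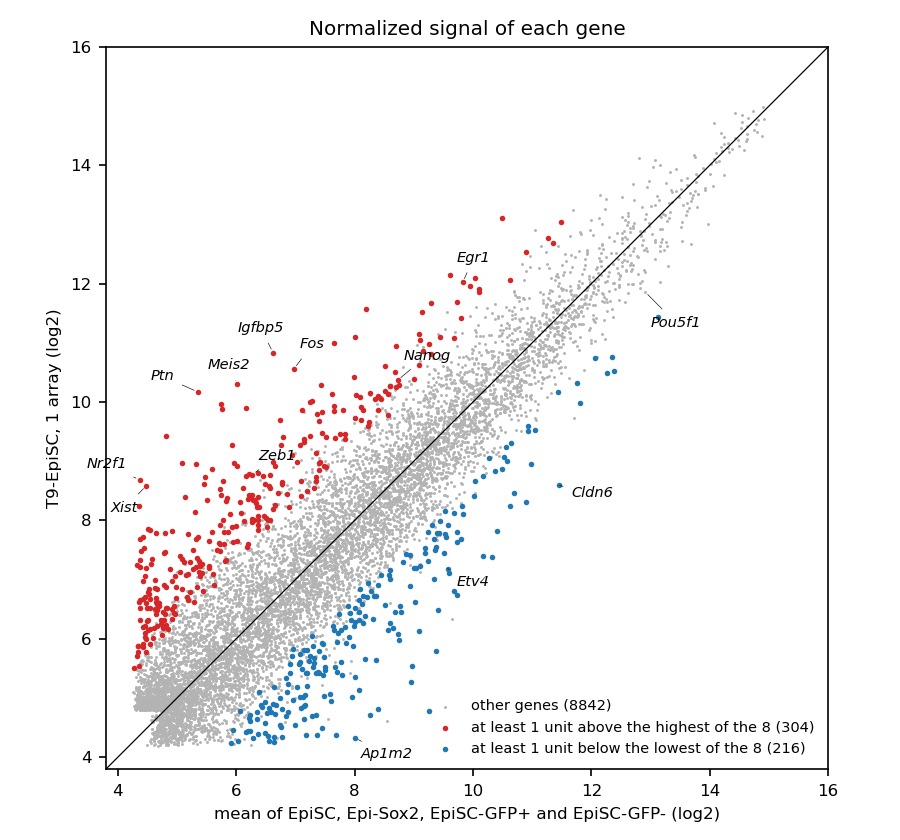
Normalized log2 signal of each of 9362 genes on the T9-EpiSC array (vertical axis) against the mean of the 4 other epiblast stem cell groups (horizontal axis). Red points mark the 304 genes at least 1 unit above the highest of the 8 arrays, blue points the 216 genes at least 1 unit below the lowest, and the line marks equal signal. Ptn, Igfbp5 and Nr2f1 stand far above the line, and Ap1m2 and Cldn6 far below it.

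Fos, Igfbp5, Ptn and Zeb1, taken as markers of these cells, were all higher on T9-EpiSC than on any of the 8 arrays. Fos, a subunit of the transcription factor AP-1 (probe ILMN_2750515, chromosome 12), read 10.56, and on the 8 arrays its lowest level was 5.34, its median 6.88 and its highest 8.91. It was 12.0-fold higher than the mean of the 4 groups, and the groups themselves were spread out, with GOF18 cells between 5.34 and 5.89 and the E3 fractions between 7.87 and 8.91. Igfbp5, a secreted binding protein of insulin-like growth factors (chromosome 1), read 10.83 against a lowest level of 5.77, a median of 6.63 and a highest of 7.34, an 18.5-fold difference from the mean of the groups. Ptn encodes pleiotrophin, a secreted growth factor that binds heparin (chromosome 6). It read 10.17 on T9-EpiSC against 4.599, 5.48 and 5.83 as lowest, median and highest level, was detected on 6 of the 8 arrays and had the largest gap above the nearest array when each gene was read by its brightest probe (28.2-fold over the mean of the groups). A dimmer probe of Mcm6, a replication helicase gene, had a larger gap of 4.57, while the other 3 probes of Mcm6 had gaps of at most 0.61. Zeb1, a zinc finger repressor of epithelial genes (chromosome 18), read 8.77 against a lowest level of 4.995, a median of 6.59 and a highest of 7.03 (5.66-fold). The largest difference between replicate arrays of a group was 0.24 for Fos, 0.49 for Igfbp5, 0.40 for Ptn and 0.28 for Zeb1, and each of the 4 genes was measured with 1 probe.

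T9-EpiSC expressed the factors that define epiblast stem cells. Pou5f1, which encodes Oct4, read 11.87, lower than all 8 arrays (12.23 to 13.51, median 12.90), a 2.05-fold difference, and its other probe was also lowest on T9-EpiSC. Sox2, its partner on DNA, read 8.72, within the range of 7.51 to 9.44, while its dimmer probe read 5.50 and lay above the range of 4.24 to 5.13. Nanog, a homeodomain factor, read 10.37 and was higher than all 8 arrays (7.57 to 9.23, median 8.96), and ESC, measured on the same scale, read 12.10 and 12.04. The primed markers Fgf5 (8.54 within 6.80 to 9.99) and Otx2 lay within the range of the 8 arrays, and Dnmt3b, the de novo DNA methyltransferase, read 12.68 and was lower than all 8 (13.23 to 14.09). In a culture measured as a whole, fewer cells of a type and less RNA per cell cannot be told apart.

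**Figure D2:**
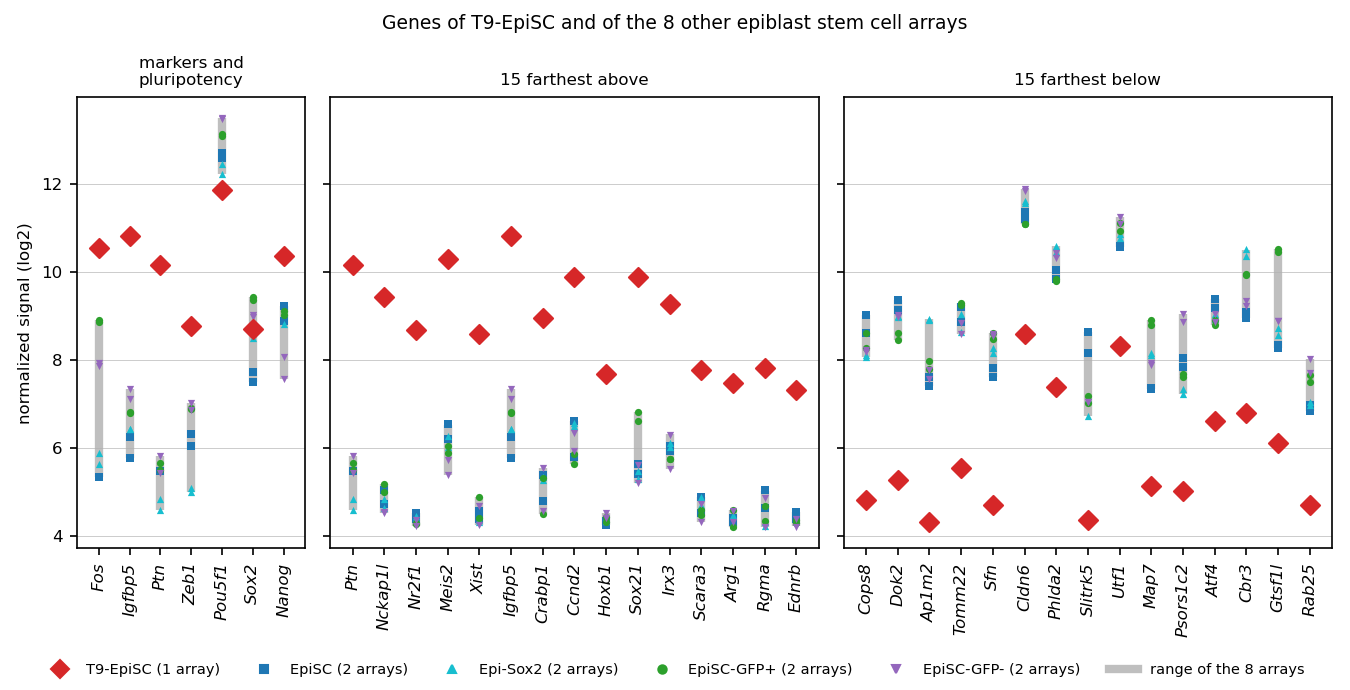
Normalized log2 signal of single genes on the T9-EpiSC array (red diamonds) and on the 2 arrays of each other epiblast stem cell group, with the grey bar spanning the range of the 8. Left, the 4 markers, Pou5f1, Sox2 and Nanog; middle and right, the 15 genes farthest above and the 15 farthest below the nearest of the 8 arrays by the rule for named genes. Sox2 is the gene whose T9-EpiSC value falls inside the grey bar.

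Among genes with a symbol whose detected probes all lay outside the range on the same side, the 15 farthest above included several regulators of the anterior neural tube. Nr2f1, an orphan nuclear receptor of the developing brain, read 8.69 on T9-EpiSC and was not detected on any of the 8 arrays, so it was at least 12.2-fold higher. Meis2, a homeodomain partner of Hox proteins, read 10.30 against a range of 5.40 to 6.54 (19.5-fold). Sox21, a Sox factor of neural progenitors, read 9.89 against 5.20 to 6.82 (17.5-fold), and Irx3, an Iroquois factor of the neural plate, read 9.28 against 5.52 to 6.31 (10.2-fold). Crabp1, which binds retinoic acid in the cytoplasm, read 8.97 against 4.50 to 5.55 (14.7-fold). Ccnd2, the G1 cyclin D2, was 13.3-fold higher (9.90 against 5.65 to 6.63). Others were Nckap1l, a subunit of the WAVE actin regulator of blood cells (9.43 against 4.53 to 5.18), the scavenger receptor Scara3, arginase 1 (Arg1), the neogenin ligand Rgma and the endothelin receptor Ednrb, with the last 4 between 7.33 and 7.83. Neither Arg1 (at least 5.28-fold higher) nor Ednrb (at least 4.78-fold) was detected on the 8 arrays. Nr2f1, Arg1, Rgma and Ednrb passed the detection filter through T9-EpiSC alone, so that they had to be high there.

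By the same rule, and among genes detected on all 8 arrays, the 15 farthest below included Cops8, a subunit of the COP9 signalosome (4.82 against 8.07 to 9.02), the signalling adaptor Dok2 (5.28 against 8.46 to 9.37) and Tomm22, an import receptor of the mitochondrial outer membrane (5.54 against 8.60 to 9.31). They were 11.9-fold, 12.7-fold and 10.8-fold lower, each by 1 probe. Atf4, the transcription factor of the integrated stress response, read 6.63 against 8.81 to 9.40 (5.29-fold), also by 1 probe. Utf1, a chromatin protein of pluripotent cells, read 8.32 against 10.58 to 11.26 (6.00-fold). Sfn, which encodes the epithelial protein 14-3-3 sigma, and Slitrk5, a neuronal membrane protein, were not detected on T9-EpiSC, which put Sfn at least 11.1-fold lower and Slitrk5 at least 5.96-fold lower. Cbr3, a carbonyl reductase, and Gtsf1l were lower by both of their probes, 7.33-fold and 7.77-fold.

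Genes of the FGF pathway lay on both sides of the range. Fgf2 itself did not pass the detection filter. Among the ligands, Fgf4, the FGF of the early embryo, read 5.81 to 7.93 on the 8 arrays (median 7.38) and was not detected on T9-EpiSC, at least 5.18-fold lower. Fgf17 was likewise not detected on T9-EpiSC (at least 2.26-fold lower). Fgf15 was higher than all 8 arrays (8.01 against 5.71 to 6.83, 3.28-fold), and Fgf8, the streak and midbrain ligand, read 9.82, just above the highest EpiSC array at 9.54. The receptors Fgfr1 and Fgfr2 lay within the range. Of proteins that assist the receptors, the membrane protein Flrt3 read 8.97 against 5.56 to 6.58 and was higher by all 3 of its probes (8-fold), the syndecan Sdc2 was higher (8.19 against 6.07 to 7.14) and the syndecan Sdc4 lower (7.16 against 8.04 to 9.13). Of the 14 ligands, receptors and coreceptors detected both on T9-EpiSC and on both arrays of another group, 5 lay above the range and 2 below. Over all 7881 genes detected on both sides, 22.9% lay above and 25.1% below, and 2.96% and 2.25% did so by at least 1 unit.

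Targets and feedback inhibitors of ERK were divided in the same way. Etv4 read 7.18 on T9-EpiSC and 9.08 to 10.03 (median 9.62) on the 8 arrays, a 5.24-fold difference. Spry4, which damps receptor signalling, read 5.10 against 6.66 to 7.10 (median 6.86), 3.39-fold lower. These genes were lower than on any of the 8 arrays. Egr1, a zinc finger factor induced within minutes of ERK activity, read 12.02 against 8.83 to 10.79 (median 9.95), 4.58-fold higher. Gbx2, a homeobox gene, read 9.998 against 5.23 to 8.63 (median 7.46), 6.73-fold higher, close to the mean of 10.44 in ESC. Dusp6, Dusp4 and Etv5, targets of the same pathway, lay within the range, although for Dusp6 the other 2 of 3 probes were highest on T9-EpiSC. In all, 6 of the 17 measured feedback and target genes lay above the range, 4 below and 7 within. All 17 were detected on both sides, where 22.9% of all genes lay above the range and 25.1% below. When the gap also had to exceed the largest replicate difference, 2 lay above and 2 below.

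Immediate early genes other than Fos and Egr1 were mostly not set apart. Egr2 read 6.68 against 4.23 to 5.17 and was detected on 1 of the 8 arrays. It passed the detection filter through T9-EpiSC alone and had to be high there. Klf6 was higher than all 8 by 1 of its 2 probes, and Zfp36, which destabilises messenger RNA, and Gadd45b were lower than all 8. Jun (6.14 within 4.96 to 6.53), Junb, Jund, Fosb, Atf3, Ccn1 and Ccn2 lay within the range. Of the 14 immediate early genes detected on both sides, 3 lay above the range and 2 below, against 22.9% and 25.1% of all such genes.

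**Figure D3:**
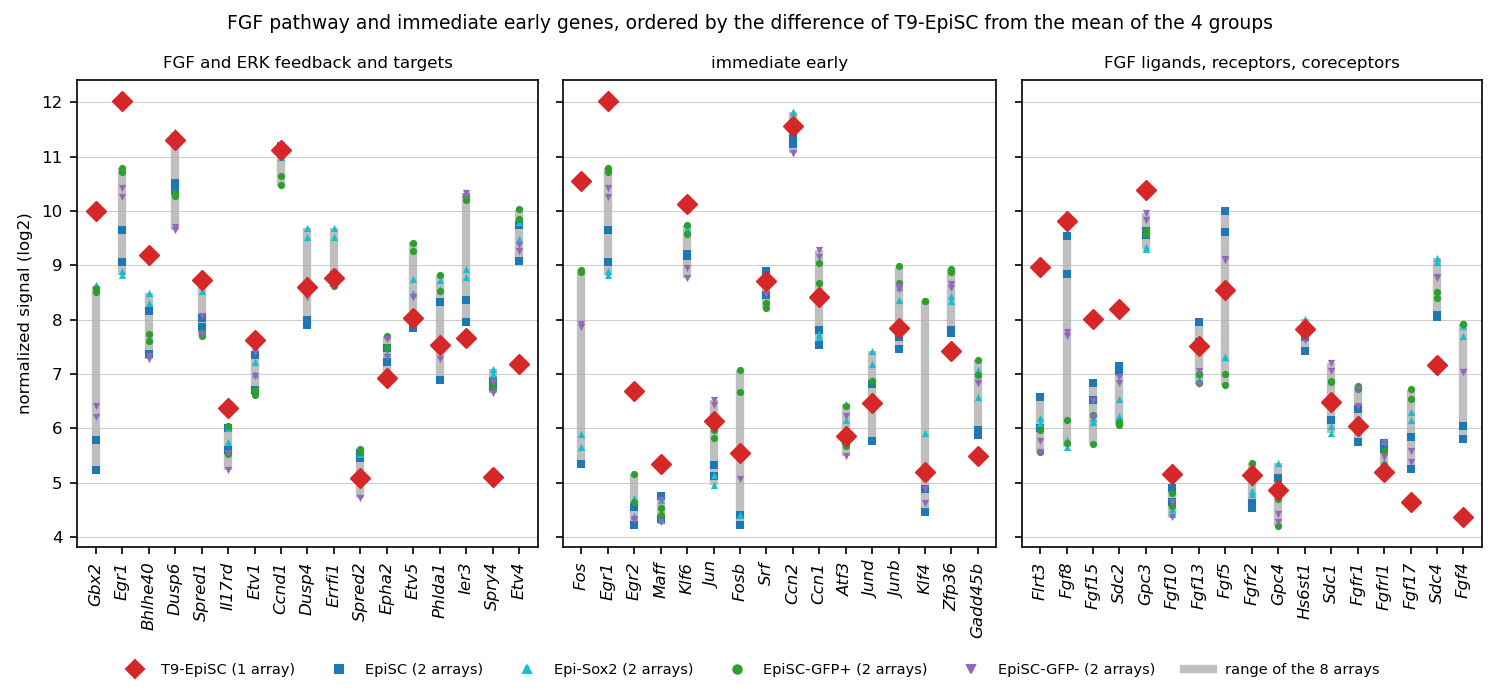
Normalized log2 signal of measured FGF and ERK feedback and target genes, immediate early genes, and FGF ligands, receptors and coreceptors on the T9-EpiSC array (red diamonds) and on the 2 arrays of each other group, with the grey bar spanning the range of the 8. Genes run from the largest positive to the largest negative difference of T9-EpiSC from the mean of the 4 groups. Gbx2, Egr1 and Fos lie above their bars, Etv4, Spry4 and Fgf4 below, and many members in between lie inside.

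Epithelial genes were lower and mesenchymal genes higher on T9-EpiSC. The promoters of 5 of the genes that were lower are shown because Zeb1, which was higher, is known to bind the E-box CAGGTG, which reads CACCTG on the opposite strand. Each run covers 250 bases before to 50 bases after the transcription start in RefSeq on GRCm38.p6, 5′ to 3′ on the gene's strand, and capitals mark CAGGTG and CACCTG. Ap1m2 lies at chr9:21312284-21312583 (minus strand), Cldn6 at chr17:23679115-23679414 (plus strand), Rab25 at chr3:88548230-88548529 (minus strand), Cldn4 at chr5:134946885-134947184 (minus strand) and Map7 at chr10:20148670-20148969 (plus strand).
Ap1m2: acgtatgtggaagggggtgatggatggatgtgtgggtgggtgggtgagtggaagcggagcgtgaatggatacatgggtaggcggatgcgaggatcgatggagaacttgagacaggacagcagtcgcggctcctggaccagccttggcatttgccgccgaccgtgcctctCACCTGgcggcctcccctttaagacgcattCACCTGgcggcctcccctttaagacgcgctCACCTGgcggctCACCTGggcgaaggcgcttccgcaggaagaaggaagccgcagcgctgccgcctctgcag
Cldn6: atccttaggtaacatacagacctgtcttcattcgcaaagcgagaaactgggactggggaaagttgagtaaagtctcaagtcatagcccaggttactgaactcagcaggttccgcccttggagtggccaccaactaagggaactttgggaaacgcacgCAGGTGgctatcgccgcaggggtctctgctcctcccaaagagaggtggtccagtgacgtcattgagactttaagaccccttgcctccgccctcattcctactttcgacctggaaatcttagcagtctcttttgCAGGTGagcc
Rab25: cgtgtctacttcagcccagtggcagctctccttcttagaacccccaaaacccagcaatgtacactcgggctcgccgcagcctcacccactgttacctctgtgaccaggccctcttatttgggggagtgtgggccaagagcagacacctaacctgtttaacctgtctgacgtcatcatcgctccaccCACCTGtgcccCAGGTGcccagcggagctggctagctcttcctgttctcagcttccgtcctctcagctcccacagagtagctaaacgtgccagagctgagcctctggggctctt
Cldn4: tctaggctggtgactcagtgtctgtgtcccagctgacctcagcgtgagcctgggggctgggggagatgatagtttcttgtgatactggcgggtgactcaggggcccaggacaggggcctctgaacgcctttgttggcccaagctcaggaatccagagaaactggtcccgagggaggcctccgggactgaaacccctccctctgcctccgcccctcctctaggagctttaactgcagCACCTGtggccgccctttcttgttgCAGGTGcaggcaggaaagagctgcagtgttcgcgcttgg
Map7: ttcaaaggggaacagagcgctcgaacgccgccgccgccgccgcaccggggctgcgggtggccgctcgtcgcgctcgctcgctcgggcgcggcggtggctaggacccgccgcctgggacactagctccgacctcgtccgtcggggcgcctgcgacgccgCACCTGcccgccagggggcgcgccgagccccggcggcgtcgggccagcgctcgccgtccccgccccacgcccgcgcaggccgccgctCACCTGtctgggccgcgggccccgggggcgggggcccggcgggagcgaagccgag
Ap1m2 holds 4 such E-boxes, with their first bases at -81, -51, -21 and -9 from the start, and the other genes hold 2 each. These 5 were picked for holding several: at least 2 sites occur in 15 of 167 genes that lay at least 1 unit below the range (8.98%), in 2.42% of the 207 at least 1 unit above and in 3.08% of the 7056 measured genes with a promoter in the table. The letters occur in 6640 of the 32851 promoters of the table (20.2%). Among measured genes with a promoter in the table, counted by any of their promoters, they occur in 21.9% of 7056 genes, in 35.3% of the 167 that lay at least 1 unit below the range and in 18.4% of the 207 that lay at least 1 unit above it. Of the 11 epithelial genes that lay below the range and have a promoter in the table, 10 hold the letters, and so do 4 of the 4 epithelial genes that did not, Krt8, Krt18, Spint2 and Crb3. A match of letters is no measurement of binding.

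Of the 22 epithelial genes measured, 17 were lower than on all 8 arrays and 2 were higher. Of the 17 detected on both sides, 14 lay below the range, against 25.1% of all such genes. The median difference of the 17 from the mean of the groups was -1.07, against -0.05 over all genes detected on both sides. Ap1m2, the adaptor subunit that sorts proteins to the basolateral membrane, read 7.42 to 8.93 (median 7.79) on the 8 arrays and was not detected on T9-EpiSC by any of 4 probes, at least 9.21-fold lower. Cldn6, a tight junction claudin of pluripotent cells, read 8.59 against 11.09 to 11.89 (median 11.47), 7.31-fold lower. Cldn4, another claudin, read 7.39 against 9.29 to 11.16 (median 10.38), 7.67-fold lower. Rab25, a trafficking GTPase of epithelia, was not detected on T9-EpiSC and read 6.84 to 8.02 on the 8 (at least 5.84-fold lower). Map7, a microtubule-associated protein gene that is not in the list, read 5.13 against 7.34 to 8.91 (7.66-fold lower). The protease gene St14 (5.38 against 7.12 to 8.20, both probes), the junction gene F11r and the splicing regulator Esrp1 were also at least 1 unit below the lowest array. Cdh1, which encodes E-cadherin, read 7.05 against 7.48 to 9.04, 2.21-fold below the mean of the groups and 0.43 below the nearest array, while ESC read 10.80. The keratins Krt8 (10.75 against 8.86 to 10.26) and Krt18 were the 2 epithelial genes above the range.

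Of the 14 mesenchymal genes measured, 13 were higher than on all 8 arrays, but 6 of the 14 passed the filter through T9-EpiSC alone, so that they had to be high there. Of the 8 detected on both sides, 7 lay above and 1, Tgfb1, below, against 22.9% and 25.1% of all such genes. Vim, the intermediate filament of mesenchymal and neural progenitor cells, read 10.86 against 8.69 to 9.63 (median 9.13), 3.23-fold higher. Zeb2, the relative of Zeb1, read 6.19 and was detected on 1 of the 8 arrays (4.51 to 5.02), and Cdh2, which encodes N-cadherin, read 5.48 and was not detected on any. Snai1 and Twist1, repressors of Cdh1, read 5.69 and 5.41 and were each detected on 1 of the 8 arrays. Markers of fibroblasts, the feeder cell type, moved with these genes: of 26 measured markers 5 passed through T9-EpiSC alone, and of the 19 detected on both sides 9 lay above the range and 3 below. The summed signal of the 26 was 13000 on T9-EpiSC, 8040 to 10100 on the 8 arrays and 9840 to 10000 in ESC. Of the defining fibroblast markers, Col1a2, Col3a1, Postn, Prrx1, Twist2 and Lum were not detected on T9-EpiSC, Thy1 was lower than on all 8 arrays (6.09 against 6.74 to 7.82), Col1a1 read 5.64 against at most 5.52, and Dcn read 6.52 and was detected on none of the 8. The part of feeder cells in the levels of Vim, Acta2 and the other mesenchymal genes was not tested.

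**Figure D4:**
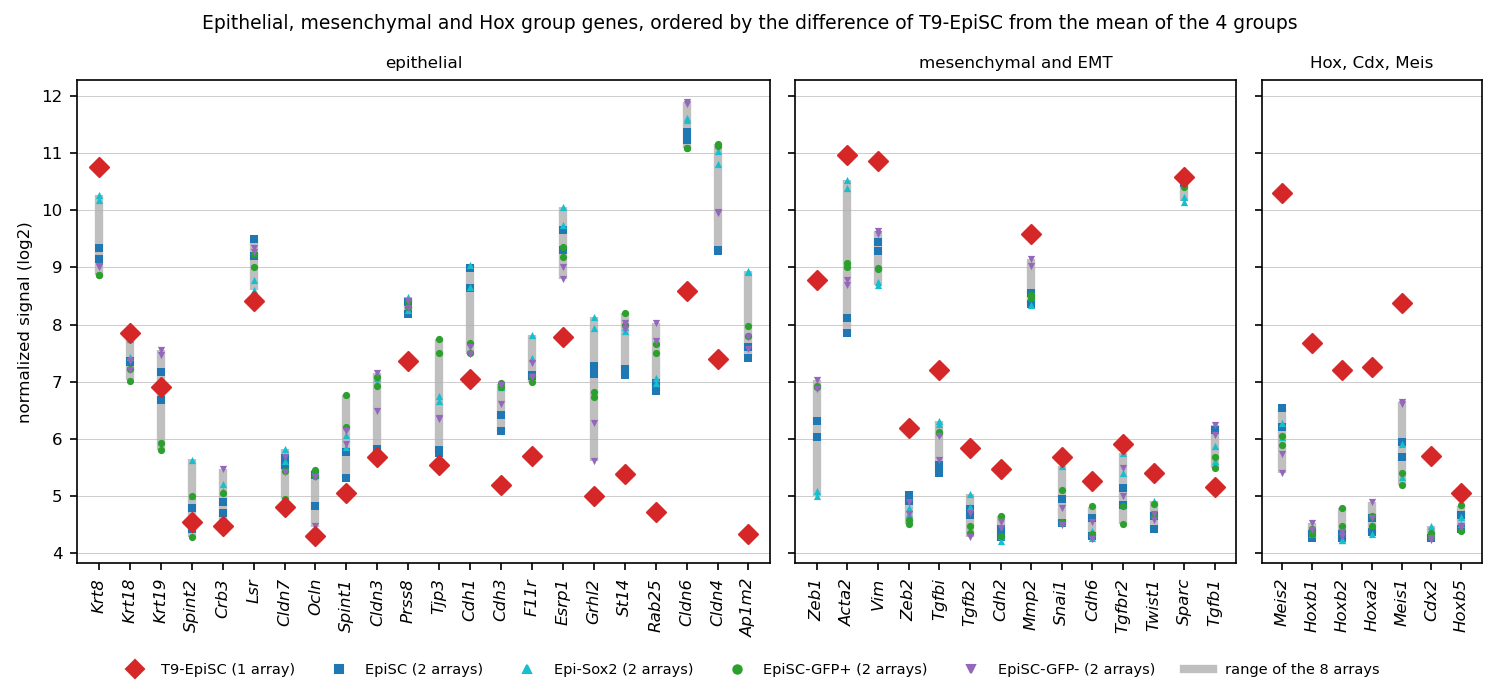
Normalized log2 signal of measured epithelial genes, mesenchymal genes and Hox, Cdx and Meis genes on the T9-EpiSC array (red diamonds) and on the 2 arrays of each other group, with the grey bar spanning the range of the 8. The T9-EpiSC value lies below the bar for 17 of 22 epithelial genes and above it for 13 of 14 mesenchymal genes and for all 7 Hox, Cdx and Meis genes measured. Over members detected on both sides the counts are 14 of 17, 7 of 8 and 2 of 2, since 6 mesenchymal and 5 Hox and Cdx genes passed the filter through T9-EpiSC alone.

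Neuroectoderm genes detected on both sides were mostly higher on T9-EpiSC, and some Hox genes of the hindbrain were detected there and on none of the 8 arrays. Hoxb1, a Hox gene of the hindbrain, read 7.68 by 1 probe, was higher by both of its probes and was not detected on any of the 8 arrays (at least 6.08-fold higher). Hoxa2 (7.26, at least 4.54-fold higher) and Hoxb2 (7.21, at least 4.4-fold higher) were likewise not detected on the 8. Meis1 read 8.38 against 5.19 to 6.64 (5.81-fold), and Cdx2 read 5.71 and was detected on no other epiblast stem cell array. Of the 22 genes in the Hox, Cdx and Meis list, 20 are on the array, 7 were measured and 5 of these passed through T9-EpiSC alone, so that they had to be high there. With no detection filter, 10 of the 20 lay above the range and 2 below, with a median difference of 0.26. Of the 16 neuroectoderm genes measured, 12 were detected on both sides, and 9 of the 12 lay above the range, 6 of them by at least 1 unit and none below. Of all genes detected on both sides, 22.9% lay above the range, 2.96% by at least 1 unit, and 25.1% below. En1, a midbrain homeobox gene, read 6.30 (at least 2.34-fold higher), and Map2, a neuronal microtubule protein, read 6.62 against 4.92 to 5.55. The neural plate gene Zic1 and the progenitor gene Dbx1 read 5.59 and 5.46 and were not detected on the 8 arrays. En1, Zic1 and Dbx1 passed the detection filter through T9-EpiSC alone, so that they had to be high there.

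Several Wnt, BMP and primitive streak genes were higher as well. Sfrp1, a secreted Wnt antagonist, read 9.70 against 5.92 to 7.18 (7.74-fold), Rspo3, a secreted Wnt enhancer, read 7.77 against 4.66 to 5.84 (6.01-fold), and Sp5, a target of Wnt, read 8.86 against 4.33 to 7.18 (9.68-fold). Axin2, the feedback target of the same pathway, read 7.98, hardly above the highest Epi-Sox2 array at 7.95. Of the 11 Wnt genes detected on both sides, 6 lay above the range and 1, Tcf7l1, below. Over all genes detected on both sides the shares were 22.9% above and 25.1% below. Each count of such genes in this paragraph is to be read against these shares. Id1, a target of BMP, read 8.13 against 5.19 to 6.78 (4.13-fold), and Id3 read 6.98 against 4.36 to 5.63 (4.17-fold). Id3 passed the detection filter through T9-EpiSC alone and had to be high there. Smad1, the transducer of BMP signals, was higher by both probes (8.23 against 5.61 to 7.44), and of the 9 BMP and Id genes detected on both sides 4 lay above the range and 0 below. Fst, the secreted inhibitor of activin, read 9.86 against 5.85 to 7.67 (median 7.49), 6.71-fold higher. Nodal and its target genes were mostly within the range, with 3 of 15 above and 1 below, and Cer1, a secreted Nodal antagonist, read 6.49 against at most 5.33. The mesoderm genes Mesp1 (5.78), Aplnr (6.15) and Pdgfra (5.52) were not detected on the 8 arrays. They were at least 1.63-fold, 2.1-fold and 1.36-fold higher, and Meox1 read 7.07 against 4.20 to 5.24. Of 18 measured streak and mesoderm genes 10 passed through T9-EpiSC alone and had to be high there, Mesp1, Aplnr, Pdgfra and Meox1 among them. Of the 7 detected on both sides 4 lay above the range. The list has 26 genes, 24 of them on the array, and T, Msgn1, Foxf1, Hand1, Kdr, Foxc2, Gata4 and Apln were not measured. Foxa2, a factor of endoderm and floor plate, read 6.85 against 4.22 to 5.03, and Foxa1 read 6.76 and was not detected on the 8 (at least 3.2-fold higher). Cxcr4, a chemokine receptor of definitive endoderm, read 6.42 against 4.31 to 4.999. Of 15 measured endoderm genes 5 passed through T9-EpiSC alone and had to be high there, namely Foxa2, Foxa1, Cxcr4, Cer1 and Pdgfra. Of the 9 endoderm genes detected on both sides 4 lay above the range and 0 below, with a median difference of 0.1. Amn, an endoderm gene not detected on T9-EpiSC, lay below the range (4.40 against 5.39 to 6.66, at least 2.18-fold lower).

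Several genes of naive pluripotency, the state of ESC, were lower on T9-EpiSC than on all 8 arrays, although 8 of the 17 measured lay within the range. Esrrb, a nuclear receptor that sustains ESC, read 5.80 against 6.95 to 11.76 (median 9.31), 11.9-fold below the mean of the groups, and ESC read 12.03. Klf5 read 7.63 against 8.64 to 10.56 (4.27-fold), and the adhesion gene Pecam1 was not detected on T9-EpiSC (at least 3.94-fold lower). These genes were lowest on T9-EpiSC, with the GOF18 EpiSC arrays nearest. Nr5a2, a nuclear receptor that binds the Pou5f1 gene, went the other way, at 8.96 against 4.23 to 7.03 (12.4-fold, both probes). So did Gbx2, which is in the naive list as well as among the ERK targets (9.998 against 5.23 to 8.63, 6.73-fold). Of the 13 naive genes detected on both sides 5 lay below the range and 2 above, against 25.1% and 22.9% of all such genes, and 4 more were not detected on T9-EpiSC. Zscan10 (7.92 against 9.07 to 10.12) and L1td1 (7.77 against 8.82 to 10.16), expressed in naive and primed cells, were also at least 1 unit below. T9-EpiSC and ESC were set against the same 8 arrays, so the 2 positions share these arrays.

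Insulin-like growth factor genes and imprinted genes held several large differences. Igf2, the fetal growth factor that is expressed from the paternal allele, read 11.10 against 7.42 to 8.49 (median 8.004), 8.48-fold higher, and Igfbp4 read 8.74 against 6.998 to 7.68 (both probes). Vegfa, the angiogenic factor, read 8.55 against 5.80 to 7.33 by 1 of its 2 probes. Igf2r, the receptor that degrades Igf2, was lower than on all 8 arrays (6.70 against 7.35 to 7.87) by 1 of 2 probes, and within the range under median scaling. Among other imprinted genes, Gnas, which encodes a stimulatory G protein, read 10.95 against 8.13 to 8.98 (both probes), Ndn 9.93 against 7.14 to 8.16 and Mest 9.41 against 5.90 to 7.99 (all 3 probes). Phlda2, expressed from the maternal allele, read 7.40 against 9.81 to 10.60, 6.82-fold lower. Of the 15 imprinted genes, all detected on both sides, 7 lay above the range and 3 below, against 22.9% and 25.1% of all such genes.

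Enzymes of glycolysis and targets of hypoxia were mostly higher. Of the 20 detected on both sides 15 lay above the range, none lay below, and the median difference was 0.81. Ndrg1 (9.84 against 5.34 to 8.42, both probes), the aldolase Aldoc (9.80 against 6.402 to 8.46) and the oxygen sensor Egln3 (9.10 against 5.75 to 7.78) were at least 1 unit above the highest array. Aldoa, the main aldolase, read 13.25 against 10.86 to 12.29, and the glucose transporter Slc2a1 read 13.51 against 11.93 to 12.55. Gapdh, often used as a reference gene, was higher by both probes (14.88 against 14.38 to 14.52), but lay within the range under median scaling. Of 13 cholesterol synthesis genes detected on both sides, 7 lay above the range and 0 below, with Stard4, a sterol carrier, at 9.40 against 7.35 to 7.99 and the reductase Dhcr7 at 9.0 against 7.33 to 8.23. Of 19 stress and p53 genes detected on both sides, 7 (against 25.1% of all such genes) lay below the range and 4 above. Mdm2, the ligase that degrades p53, read 9.70 against 10.55 to 11.79 by both probes, Trib3, a target of Atf4, read 6.03 against 6.83 to 7.78, and Pmaip1 was not detected on T9-EpiSC by the probe used (at least 3.69-fold lower). Asns, also a target of Atf4, was higher by all 3 probes. Of 22 cell cycle genes 6 lay above the range and 3 below, of 13 interferon genes 2 above and 1 below, and of 16 matrix and adhesion genes 2 above and 4 below. The counts of this paragraph cover genes detected on both sides. Of all such genes, 22.9% lay above the range and 25.1% below.

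**Figure D5:**
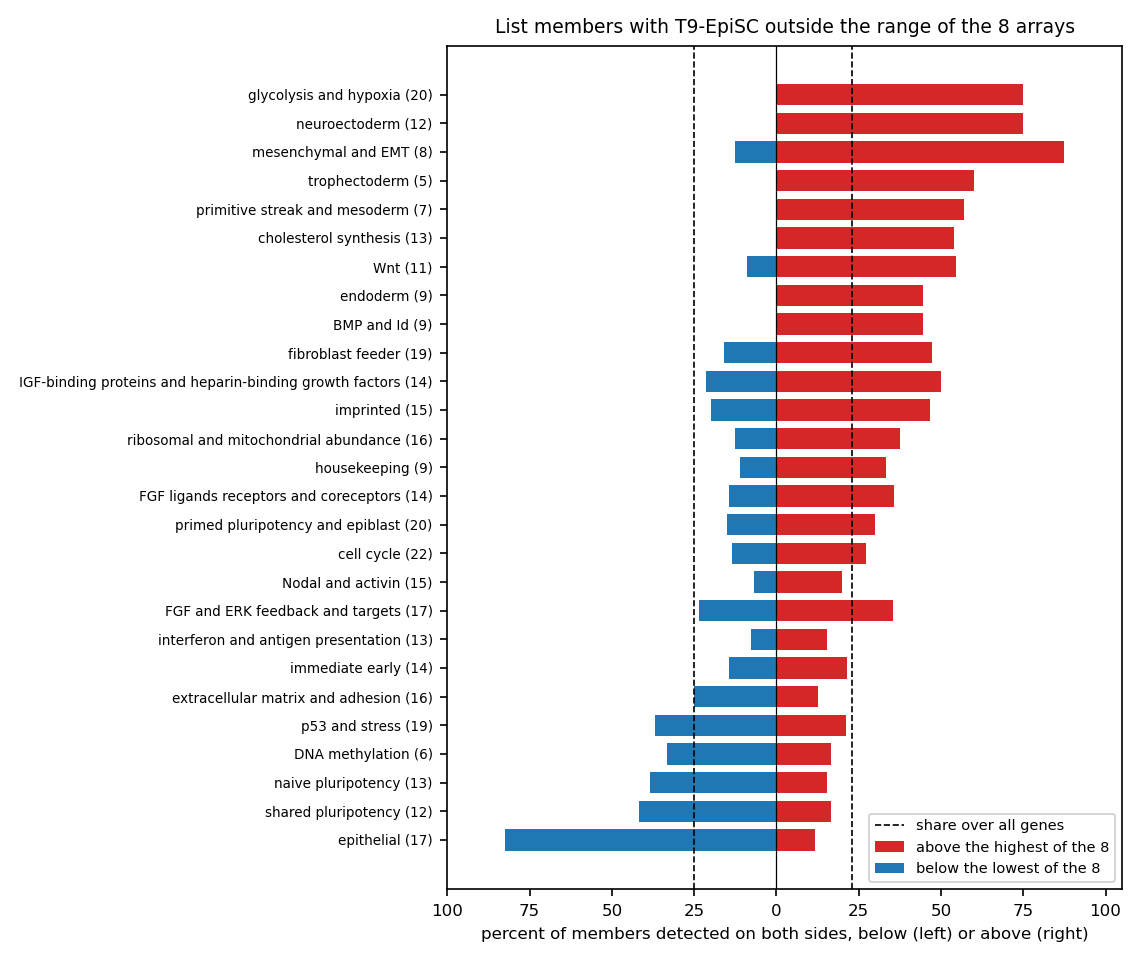
Percent of the members of each gene list with T9-EpiSC above the highest (red, right) or below the lowest (blue, left) of the 8 arrays, over members detected both on T9-EpiSC and on both arrays of another group (number in brackets, lists with at least 5). Dashed lines mark the shares over all 7881 such genes, 22.9% above and 25.1% below. Epithelial genes have the longest bar to the left, and mesenchymal, glycolysis and neuroectoderm genes the longest bars to the right.

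The culture nearest to T9-EpiSC was most often GOF18 EpiSC. For 48.0% of the 304 genes at least 1 unit above the range, the highest of the 8 arrays was an EpiSC array, against 27.1% over all genes, and for 47.2% of the 216 genes at least 1 unit below, the lowest was an EpiSC array, against 23.9%. The number of genes at least 1 unit outside was 729 when T9-EpiSC was set against the 4 GOF18 arrays alone and 1245 against the 4 E3 arrays alone, each counted over 4 arrays and not 8. Fos, Egr1 and Egr2 were nearest to EpiSC-GFP+, and Igfbp5, Ptn, Zeb1 and Vim to EpiSC-GFP-.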

How the data were processed

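Per the file headers, the deposited table held a mean bead intensity per probe and array, not normalized, and a detection p-value against the negative controls of the same array. The submitters' processing notes name BeadStudio 3.2, lumi and RMA. The authors also deposited log2 values per probe, which share the same quantiles on all 11 arrays and served as an alternative; their background correction is not given in the sources used here. Intensities were corrected with neqc of limma 3.58.1 (R 4.3.3; normexp with the detection p-values, offset 16), quantile normalized over the 11 arrays and put on the log2 scale. Of 25697 probes, 12550 had a detection p-value under 0.01 on T9-EpiSC or on both arrays of another epiblast stem cell group, and the brightest probe stood for a gene, which gave 8646 symbols and 716 probes without a symbol. Gene names came from the platform annotation, in which 23978 probes have 1 symbol, none has several and 1719 have none.

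A gene lay outside the range when T9-EpiSC exceeded the highest or fell short of the lowest of the 8 arrays. Differences are T9-EpiSC minus the mean of the 4 group means, and a fold is higher over lower. Where a gene was not detected on a side, the fold is a bound from the lowest detected signal of each array. "Detected on both sides" means detected on T9-EpiSC and on both arrays of another group. The calculation of the range rule was run on a simulated array, the median of the 8 with replicate noise and known shifts. The simulated array held no difference of line, sex or culture. It therefore cannot show how often an array of another line falls outside the range. No test was made between T9-EpiSC and the 8 arrays, whose number limits the precision. Genes named were the 4 markers, Pou5f1, Sox2, Nanog, the 15 genes farthest above (detected on T9-EpiSC) and the 15 farthest below (detected on all 8 arrays) among those with a gene symbol and all detected probes outside on the same side, and up to 6 members of each list at the largest gaps; further members, those within the range included, were named after their values were seen. The members and lists were chosen with earlier results of these data known. Promoters and their coordinates are RefSeq's on GRCm38.p6; of the epithelial genes measured, Cdh1, Krt19, Esrp1, Grhl2, St14, Prss8 and Cdh3 had no entry in the table used. Alternatives covered background, normalization, starting values, filters, probes and arrays.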

Additional observations from a re-analysis of the deposited data

How the results depend on the processing

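The number of genes outside the range was 4575, and between 4701 and 4861 when each of the 8 arrays was left out in turn, which can only raise it. It was 2200 when the gap also had to exceed the largest difference between replicate arrays, an alternative chosen after seeing the data. The number outside by at least 1 unit was 520, and between 531 and 597 with an array left out. It was 278 with an offset of 50, 189 with no background correction and 902 from the authors' log2 values (the cause was not tested). It was 321 among genes detected on all 9 epiblast stem cell arrays, which tests fewer genes, and 1245 against the 4 E3 arrays, which spans fewer arrays. Without genes of the X and Y chromosomes, added after seeing the data, the counts were 4443 and 502. Of 157 named genes outside the range, 154 stayed outside on the same side under cyclic loess, 149 under median scaling and 136 when the gap had to exceed the largest replicate difference, where Gadd45b, Krt18 and Pmaip1 were among the 21 lost. All of those measured stayed outside when detection on all 9 arrays was asked for (97) and without X and Y chromosome genes (154), and all 157 did under the other settings that read each gene by 1 probe. None crossed to the other side. For most of these settings that outcome was fixed in advance. Leaving out arrays can only narrow the range, and the filters do not change normalized values. The background settings and the authors' values keep the order of probes within an array, which quantile normalization largely carries over. Cyclic loess, median scaling and the replicate difference were the settings that could move a gene inside. Of the 36 named genes outside the range with several detected probes, 28 lay outside by all of them, and Sall4 had probes on both sides. Under median scaling Smad2, Igf2r, Ccne1, Lamc1, Mbd3, Gapdh, Tbp and Uqcrc1 lay within the range. The share of calls above the range was 55.6% under cyclic loess and 39.9% among genes detected on all 9 arrays, against 50.1%. Under median scaling the median difference of the FGF and ERK targets was 0.16 in place of -0.05. Several probes were detected for 2295 genes, of which 495 lay above the range by the brightest probe and 288 by all of them, 610 lay below by the brightest and 221 by all, and 101 had probes on both sides. No paired analysis was possible because T9-EpiSC had 1 array and the results come from no test.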

Other observations

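The following genes were chosen after their values were seen. Shh, the ligand secreted by notochord and floor plate, read 7.53 on T9-EpiSC by the brighter of 2 probes, was higher by both and was not detected on the other 8 arrays, at least 5.49-fold higher. Foxd4, a forkhead gene of early neural ectoderm, read 7.86 against 4.30 to 5.34 (10.1-fold), and Rfx4, a factor of the neural tube, read 7.19 and was not detected on the 8 (at least 4.33-fold higher). Foxa2, also expressed in floor plate, was higher as well, as given with the endoderm genes. Shh, Rfx4 and Foxa2 passed the detection filter through T9-EpiSC alone, so that they had to be high there.

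The next 4 genes have products in motile cilia, were picked for their high values and not from a list, and are given as single values. Tekt1, a filament protein of the axoneme, read 8.40 against 4.33 to 5.82 and was 9.61-fold higher by the probe used, with its other probe also above the range. Dynlrb2, a dynein light chain, read 7.36 against 4.29 to 5.01 (6.86-fold), and Spag6l, of the central pair of the axoneme, read 6.98 and was not detected on the 8 (at least 3.74-fold higher, both probes). Enkur, which sits in sperm and motile cilia, read 6.62 and was not detected on the 8 (at least 2.91-fold higher). Foxj1, the regulator of motile cilia, read 4.89 and lay within the range of the 8 arrays, where the highest level was 5.27.

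Of genes that bind or respond to retinoic acid, Crabp2, a binding protein, read 8.74 against 4.54 to 6.43 (9.59-fold), and Stra6, a retinol transporter, read 5.53 and was not detected on the 8 (at least 1.37-fold higher). Cyp26a1, the enzyme that degrades retinoic acid and is induced by it, read 6.07, within the range of 4.61 to 6.29. The receptor gene Rarg was lower than on all 8 arrays (6.21 against 6.81 to 8.16).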
